A study of Danio rerio with 32 samples.

Results

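Among the 32 pools of whole zebrafish larvae in this retene study, 3 lay apart from all others on the first principal component of expression: replicate 2 of the control, replicate 4 of 8 µM and replicate 2 of 50 µM. They are compared here, gene by gene, with the 9 other pools of the same 3 groups, each pool with its own 3 mates. The pools were chosen by their position on that component, which all 22686 genes enter, so the differences between them and their mates are described without a test. The exposures were retene at 8 and 50 µM, and the control received the DMSO vehicle alone. All fish were of the Tropical 5D line, were exposed in plates from 6 hpf and were collected at 48 hpf, and each pool held 9 fish. The other 20 pools came from 5 further concentrations between 0.205 and 20 µM, with 4 pools in each of the 8 groups. No mutant line is among these samples, no label tells which fish, clutches or plates a pool came from, and only morphologically normal fish were taken.

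Retene is an alkylated polycyclic aromatic hydrocarbon that activates the aryl hydrocarbon receptor, a ligand-activated transcription factor whose main receptor for such compounds in zebrafish is AHR2, and cyp1a, a cytochrome P450 that oxidizes these hydrocarbons, is its best known target. At 48 hpf a zebrafish has a beating heart, contracting trunk muscle, pigment cells and growing axon tracts, still feeds from its yolk, and is forming the cartilage of its jaw. Expression in a pool of whole larvae therefore sums many tissues, and a gene can differ between pools of the same treatment through stage, tissue makeup, clutch or handling. Fewer cells of a type and less RNA per cell cannot be told apart in such pools.

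On the first component, which held 19.0% of the variance, control replicate 2 had a score of 30.3, 8 µM replicate 4 a score of 26.2 and 50 µM replicate 2 a score of 12.9. The next pool was control replicate 1, a mate, with a score of 5.06. The 9 mates ran from -11.0 to 5.06 and the other 20 pools from -11.1 to 3.43. Among the 3 pools the score was highest in the control and lowest at 50 µM. The depth of a pool was not among the values that chose them. They had 8045230 to 8470113 reads on genes, their mates had 7877902 to 8656870, and the mean difference of 98453 reads was within the spread of pools (exact permutation test within concentrations, two-sided, p = 0.5625 over 64 arrangements, smallest possible p = 0.0156).

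**Figure D1:**
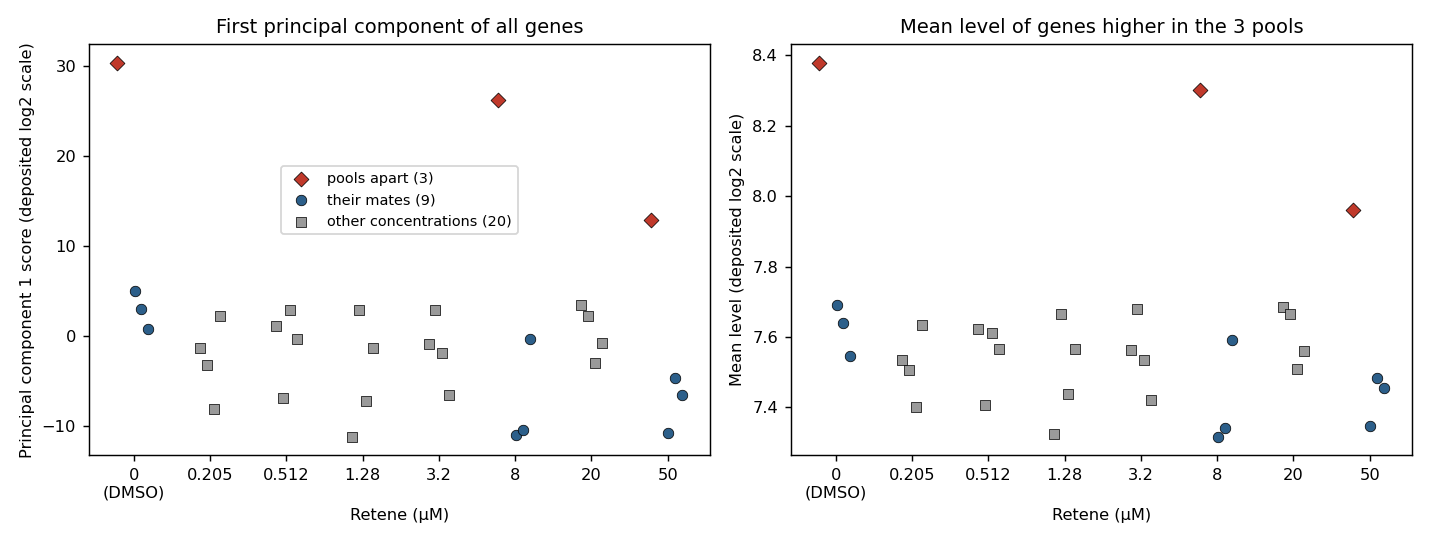
First principal component score of each pool (left) and mean level of the 564 genes counted as higher in the 3 pools (right), both on the deposited log2 scale, against retene concentration in µM. Each point is 1 pool, with the 3 pools apart as red diamonds, their 9 mates as blue circles and the other 20 pools as gray squares. The red points lie at 30.3, 26.2 and 12.9 on the left, above a next highest value of 5.06. On the right, the gap between red and blue points of a concentration follows from the rule that chose the 564 genes.

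On the deposited scale, nearly all genes that passed a size limit of 0.5 were higher in the 3 pools. A gene was counted as higher when its difference, the pool apart minus the mean of its 3 mates, averaged at least 0.5 on the deposited log2 scale over the 3 concentrations and when each of the 3 pools lay above all of its own mates. By this rule 564 genes (2.49% of 22686) were higher and 3 genes (0.0132%) were lower. With no size limit, 2444 genes (10.8%) lay above all mates in all 3 pools and 1180 genes (5.2%) lay below all mates. Differences of at least 1 were seen for 67 genes upward and for 0 downward. On a plain log2 scale with 0.5 added to the normalized count, 1444 genes were higher and 272 lower, so that 84.15% of the counted genes were higher, against 99.47% on the deposited scale, which compresses the differences of genes with few reads. The median difference over all genes was -0.02. Normalization by DESeq2 brings the typical gene close to no difference in advance, so this median cannot show whether the pools shifted as a whole.

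Past 0.5 in size, the 50 µM pool had fewer upward and more downward differences than the other 2. Alone, control replicate 2 had 928 genes past 0.5 above its mates and 27 past -0.5 below them, 8 µM replicate 4 had 1030 and 100, and 50 µM replicate 2 had 350 and 237. Over the 564 genes the median difference was 0.70 in the control, 0.80 at 8 µM and 0.50 at 50 µM. Without 50 µM replicate 2 the count of higher genes was 863, and without control replicate 2 the count of lower genes was 87. Across all genes, which are not independent replicates, the differences of the control and 8 µM pools had r = 0.61, those of 8 and 50 µM r = 0.60, and those of the control and 50 µM r = 0.33. These values follow in part from the choice of the 3 pools on a component of the same genes.

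On the deposited scale the named gene that differed most was synpo2a, which encodes synaptopodin 2, an actin-binding protein of the muscle Z-disc. It had 1119 normalized counts, that is reads divided by the size factor of the pool, in control replicate 2, against 277, 265 and 231 in its mates. At 8 µM it had 1152 in the pool apart, against 103, 119 and 314 in the mates, and at 50 µM 688, against 180.4, 214 and 145. All 3 pools were thus above every mate, and also above the other 20 pools, where the gene ran from 140.0 to 388 with a median of 230.0. Its mean difference was 1.87 ± 0.39 on the deposited scale (SD of the 3 differences), and its geometric mean ratio of normalized counts was 4.74. By this ratio other leading genes differed more, among them mri1 (14.1), cpeb2 (7.27) and hic2 (6.08).

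Genes of axon growth stood beside it. The cell adhesion molecule l1camb, a zebrafish L1 that axons carry on their surface, had 865 normalized counts in the control pool apart, against 221, 205 and 174 in its mates, 1053 against 107, 119 and 207 at 8 µM, and 510.0 against 117, 198 and 147 at 50 µM. The gene mapta, which encodes the microtubule-associated protein tau, had 635 against 254, 210 and 168 in the control, 810.1 against 104, 104 and 258 at 8 µM, and 507 against 79.2, 155 and 141 at 50 µM. Neither gene overlapped between the pools apart and the mates, and the lowest pool apart held more counts than any of the other 20 pools, whose highest values were 314 for l1camb and 304 for mapta. The secreted guidance cue sema3gb had a geometric mean ratio of 4.34 between the pools apart and their mates, and the receptor tyrosine phosphatase ptprsb, an axonal receptor, differed by 1.26 ± 0.47.

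Several of the other leading genes encode regulators of transcription. Among them mef2ca, a MADS box factor of muscle and of the jaw skeleton, had 996 normalized counts against 373, 316 and 229.9 in the control, 934 against 119, 133 and 329 at 8 µM, and 665 against 148, 268 and 172 at 50 µM. The methyl-CpG-binding domain gene mbd6 had 511 against 115, 165 and 66.1 in the control, 448 against 48.9, 37.8 and 123 at 8 µM, and 337 against 49.1, 75.4 and 43.6 at 50 µM. The zinc finger genes hic2 and prdm1b differed by 1.41 ± 0.31 and 1.37 ± 0.27. In the same group of 15 leading genes were mri1, an enzyme of methionine salvage (1.49 ± 0.56), the cullin gene cul9 (1.33 ± 0.35), tp53inp2b, whose mammalian counterpart acts in autophagy (1.32 ± 0.37), cpeb2, which binds polyadenylation elements of mRNAs (1.28 ± 0.50), the adaptor gene rusc1 (1.28 ± 0.61) and the fibrillar collagen gene col27a1a (1.24 ± 0.56). For mri1 the pools apart had 205, 142 and 54.0 normalized counts in the control, at 8 and at 50 µM, against 1.06 to 11.8 over the 9 mates. A gene without a descriptive name, LOC100330629, had the largest difference of all on the deposited scale, 2.08 ± 0.44.

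Each of these 15 genes was higher in the 3 pools than in all other 29 pools, and so were 466 of the 564. The 564 had been chosen for lying above the mates of these same pools, so both counts follow in part from the rule. The share over all genes was not counted. The mates themselves were not alike. At 8 µM, replicate 3 was the highest of the 3 mates for 14 of the 15 leading genes and for 465 of the 564, and its first component score of -0.36 lay above those of replicates 1 and 2, which were -11.0 and -10.4. In the control, replicate 1 was the highest mate for 329 of the 564, and at 50 µM replicate 3 was for 281. How often each mate was the highest over all genes was not counted, so these counts describe only the chosen genes.

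**Figure D2:**
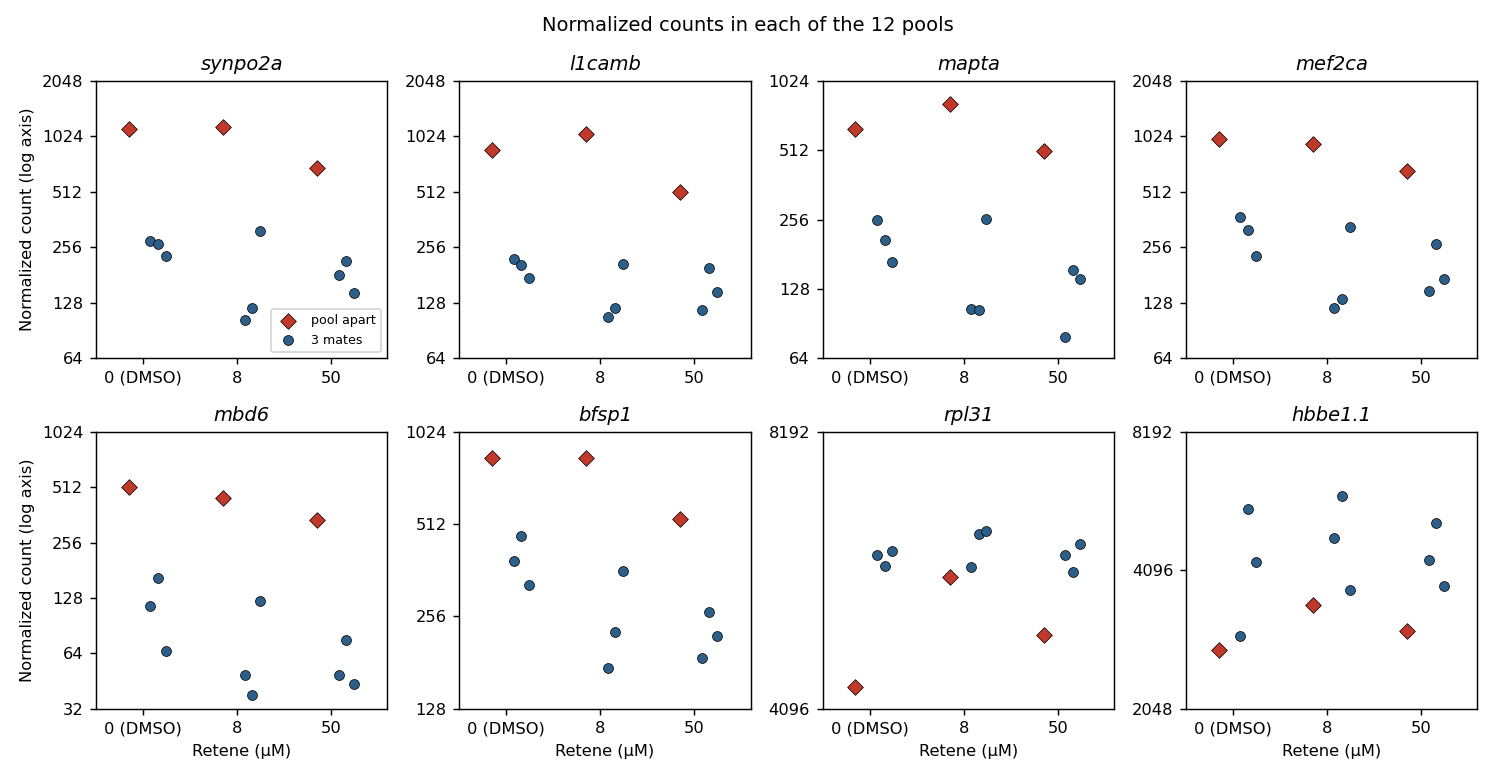
Normalized counts, on a log axis with base 2, of 8 genes in each of the 12 pools, against retene concentration in µM. Each point is 1 pool, with the pool apart as a red diamond left of its 3 mates in blue. For synpo2a, l1camb, mapta, mef2ca, mbd6 and bfsp1 the red points lie above all mates of the same concentration, and for rpl31 and hbbe1.1 below them.

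Each of the 3 genes counted as lower had its own pattern. The glypican gene gpc6a, which encodes a cell surface heparan sulfate proteoglycan, had 113 normalized counts in the control pool apart, against 122, 126 and 134, then 67.9 against 204, 188 and 136 at 8 µM, and 82.0 against 175, 165 and 410.3 at 50 µM. The transcription factor gene zbtb20 had 48.6 against 80.8, 71.5 and 85.8 in the control, 32.5 against 92.5, 99.5 and 76.7 at 8 µM, and 56.9 against 97.2, 93.3 and 232 at 50 µM. In both genes the highest of the 12 values was that of 50 µM replicate 4, a mate that stood apart on the second principal component with a score of 26.1. The embryonic beta globin gene hbbe1.1 had 2749 against 2946, 5560 and 4265 in the control, 3442 against 4818, 5948 and 3708 at 8 µM, and 3021 against 4315, 5196 and 3784 at 50 µM. Its nearest mates were thus only slightly higher, and the other 20 pools ran from 2460 to 7103.

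Genes below all mates were many but moved little, and they included many of protein synthesis and energy supply. Their median difference was -0.17, and their median count of 189 was higher than the 58.5 of all genes and the 84.1 of the 564 higher genes. Of 73 cytosolic ribosomal protein genes, 32 lay below all mates in all 3 pools and 0 lay above, against 5.2% and 10.8% of all genes, and the median difference was -0.15. In the highest of 5 equal groups of genes by mean normalized count, 10.8% lay below all mates and 14.4% above. The ribosomal protein gene rpl31 had 4329.9 normalized counts against 6018.5, 5854 and 6071 in the control, 5695 against 5841, 6340.1 and 6386 at 8 µM, and 4931.5 against 6013, 5767 and 6187 at 50 µM. Every one of these pools was below its mates, by the most in the control. The translation elongation factor genes eef1a1l1 and eef2b, named after their values were seen, differed by -0.17 ± 0.08 and -0.17 ± 0.13 and also lay below all mates.

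Mitochondrial genes went the same way. Of 86 nuclear genes of the respiratory chain, 22 lay below all mates and 0 above (median -0.13), of 68 mitochondrial ribosomal protein genes 12 and 0 (median -0.09), and of 13 protein genes of the mitochondrial genome 7 and 0 (median -0.16). After quantile normalization the mitochondrial genome median was -0.0245, above the all-gene median of -0.0338 in that setting. The medians of the respiratory chain (-0.14), the mitochondrial ribosomal proteins (-0.13) and the cytosolic ribosomal proteins (-0.07) stayed below it. COX2, the second subunit of cytochrome c oxidase, had 68688 normalized counts against 75142, 77324 and 72793 in the control, 70840 against 86299, 95034 and 86668 at 8 µM, and 73885 against 82451, 81895 and 79114 at 50 µM. Of 42 proteasome genes, 8 lay below all mates and 0 above, with psmb2, a catalytic core subunit, at -0.20 ± 0.03. Of 26 genes of glycolysis, 6 lay below and 2 above, and of 71 splicing factor genes 11 below and 3 above.

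Each of the 30 tissue lists had at least 7 measured genes. That none had all its genes above or all below the mates shows nothing about a tissue, since few genes lay beyond all mates. The 60 lists of genes, 30 for tissues, 28 for functions and 2 for stages, were chosen with earlier results of these data known. They hold 1775 genes, and only 26 of the 564 higher genes are on any of them, so that 538 are on none. This is 4.61% of the 564, against 7.82% of all genes. Of all genes 10.8% lay above all mates and 5.2% below. Fast skeletal muscle had 10 genes above and 10 below among 55 (18.2% each), and its median was -0.10. Neuron and synapse genes had 9 above (23.7%) and 1 below among 38 with a median of 0.00, cartilage 9 (34.6%) and 2 among 26 (median 0.03), fibroblast and collagen matrix 8 (26.7%) and 1 among 30 (median 0.02), and fin fold 5 (31.2%) and 1 among 16 (median 0.14). Genes of yolk and the yolk syncytial layer had 1 above and 4 below (18.2%) among 22 (median -0.18), erythroid genes 1 and 4 (16.7%) among 24 (median -0.15), lens genes 1 and 4 (7.69%) among 52 (median -0.10), liver genes 0 and 3 (12%) among 25 (median -0.11), and hatching gland genes 0 and 0 among 7 (median -0.12). Medians were below that of all genes for 43 of the 60 lists.

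**Figure D3:**
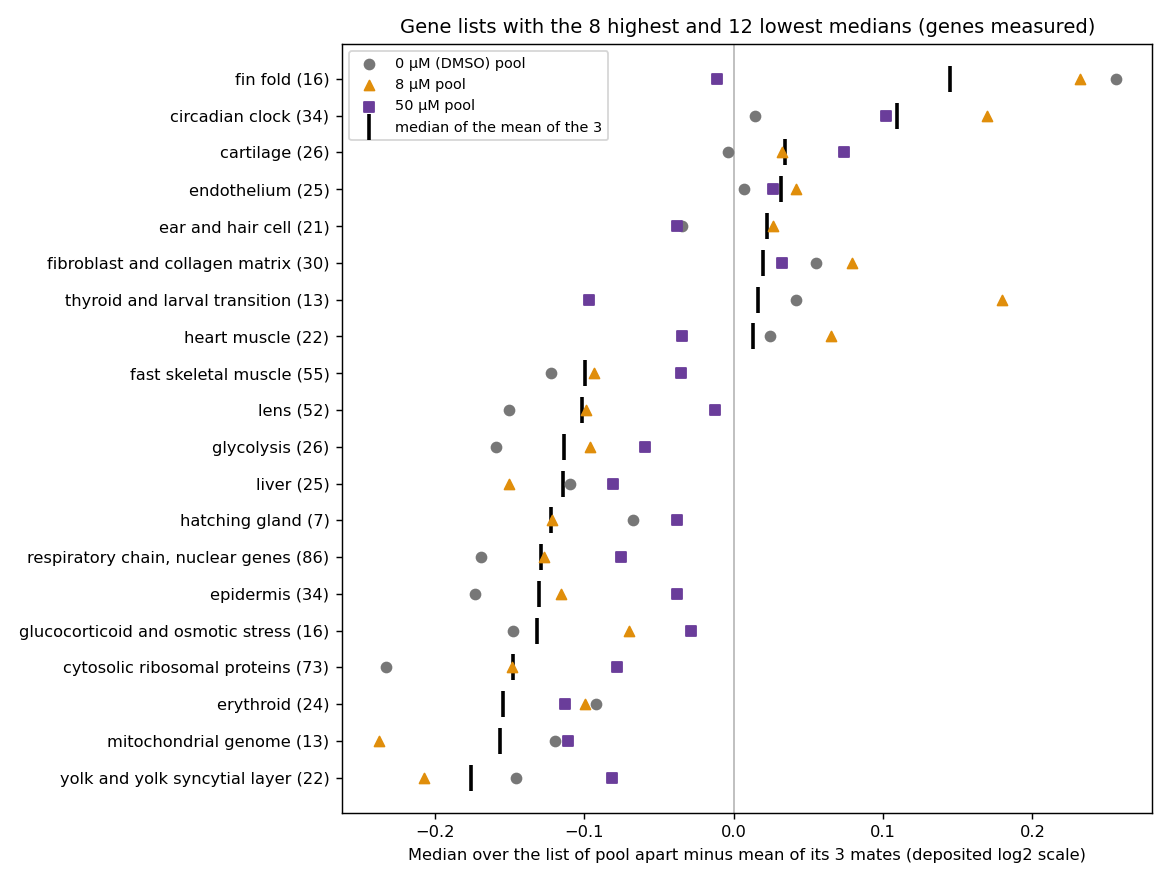
Median over each gene list of the difference between a pool apart and the mean of its 3 mates, on the deposited log2 scale, for the 8 lists with the highest and the 12 with the lowest medians, with the number of genes measured in parentheses. Symbols give the control, 8 and 50 µM pools and the black bar the median of the mean of the 3. Fin fold lies highest at 0.14 and yolk lowest at -0.18, and all list medians lie well under 0.5 in size.

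Members of 1 tissue list often went different ways. In the lens list bfsp1, which encodes the beaded filament protein filensin, had 838 against 387, 468 and 325 normalized counts in the control, 839 against 174, 228 and 359.7 at 8 µM, and 530.3 against 187, 265 and 221 at 50 µM. The crystallin gene crygm2d14 of the same list differed by -0.24 ± 0.05 and lay below all mates. In heart muscle the actin gene actc1a, an abundant thin filament product, differed by -0.35 ± 0.12, and tbx5a, a transcription factor of heart and pectoral fin, by 0.45 ± 0.15. In the epidermis the desmosomal genes ppl (0.41 ± 0.08) and dspa (0.32 ± 0.02) lay above all mates although the median of the list was -0.13. That list had 4 genes above all mates (11.8%) and 6 below (17.6%) among 34.

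The other list members among the 564 were scattered over tissues. Cartilage held sox9a (0.83 ± 0.26) and sox6 (0.76 ± 0.26), the transcription factors of chondrocyte differentiation. Endothelium held cdh5, the vascular cadherin (0.90 ± 0.24), and efnb2a, an ephrin of arteries (0.67 ± 0.27). The endothelium list had 3 genes above all mates and 1 below among 25 (median 0.03). Neural progenitors, with 4 genes above all mates and 2 below among 28 and a median of -0.05, held notch3 (0.70 ± 0.10) and pax6b (0.66 ± 0.18), and neurons held the vesicular glutamate transporters slc17a6b (0.60 ± 0.31) and slc17a6a (0.52 ± 0.33). For notch3 the 3 pools apart had 2932, 2581.5 and 2229 normalized counts, against 1639.8 to 1758 in the control mates, 1273 to 1912 in the 8 µM mates and 1269.7 to 1575 in the 50 µM mates.

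Muscle held cacna1sa, the calcium channel subunit of excitation-contraction coupling (0.53 ± 0.17), and smyhc1, a slow myosin heavy chain (0.74 ± 0.11). Slow skeletal muscle genes had 1 above all mates and 0 below among 12 (median 0.01). Melanophores, with 2 genes above and 0 below among 14 and a median of -0.06, held tyr, the tyrosinase of melanin synthesis, with 412 against 246, 235 and 166 in the control, 340 against 146, 144 and 214 at 8 µM, and 279 against 125, 174 and 109 at 50 µM. The 3 differences of tyr were nearly equal, at 0.73 ± 0.01. The macrophage and xanthophore receptor csf1ra (0.56 ± 0.21), the laminin gene lama5 of the fin fold (0.71 ± 0.31), the fibrillin gene fbn2b (0.83 ± 0.33) and pcdh8, a protocadherin of forming somites (0.52 ± 0.16), completed the tissue and early stage lists. Leukocyte genes had 1 above all mates and 2 below among 27 (median -0.03). Genes of somites and the tail bud had 3 above and 1 below among 23 (median -0.03). The thyroid hormone receptor gene thrb was the only one of 13 genes of the larval transition list to be counted, at 0.60 ± 0.30.

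Among functions, the circadian clock list had 9 of 34 genes (26.5%) above all mates and 1 (2.94%) below (median 0.11). Of all genes 10.8% lay above all mates and 5.2% below. The activator clockb differed by 0.58 ± 0.20, the repressor per1b by 0.54 ± 0.33 and the output factor tefb by 0.53 ± 0.23. The per1b counts were 722 against 552, 654 and 611 in the control, 1314 against 629, 617 and 769 at 8 µM, and 1004 against 650.4, 748 and 630.1 at 50 µM, so its excess was smallest in the control. The hour of collection of each pool was not analysed here. Of 25 hypoxia genes, epas1a, a hypoxia-inducible factor (0.91 ± 0.26), and bnip3la, a mitophagy receptor (0.54 ± 0.21), were higher. The other copy of the latter, bnip3lb, lay below all mates at -0.21. The hypoxia list had 3 genes above all mates (12%) and 2 below (8%), with a median of -0.02. The list of peroxisome and fatty acid oxidation had 2 genes above all mates and 4 below among 29 with a median of -0.05, and the 2 were pdk4, which holds back pyruvate oxidation (0.61 ± 0.10), and ppargc1a, a coactivator of mitochondrial biogenesis (0.57 ± 0.28). Of the glutathione list only the transketolase gene tkta was counted (0.65 ± 0.30), while its other copy tktb lay below all mates at -0.18. In that list hmox1a and nqo1, both stress-responsive detoxification enzymes, lay below all mates at -0.44 ± 0.13 and -0.30 ± 0.03. The glutathione list had 1 gene above all mates (4.55%) and 3 below (13.6%) among 22, with a median of -0.07.

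Stress and proliferation lists held 0 of the 564 genes apart from those of hypoxia and glutathione. The shares of all genes were 10.8% above all mates and 5.2% below. Of 35 mitosis genes 3 lay above all mates and 3 below, with a median of -0.04. Members of this list were mki67, a marker of dividing cells, at 0.47 ± 0.07 and anln, a cytokinesis scaffold, at 0.45 ± 0.07. DNA replication genes had 2 above and 4 below among 45 (median -0.05). Genes of endoplasmic reticulum stress and secretion had 1 above and 6 below among 26 (23.1% below, median -0.09), and those of glucocorticoid and osmotic stress 1 and 0 among 16 with a median of -0.13. Heat shock and chaperone genes had 2 above (6.45%) and 3 below (9.68%) among 31, and p53 targets 0 and 0 among 17. Interferon genes had 0 above and 1 below (4.55%) among 22, and immediate early genes 3 (7.5%) and 0 among 40. Inflammation and complement genes had 0 above and 3 below (10.7%) among 28, led by the complement gene c4 at -0.40 ± 0.15. Hox genes, which mark position along the body axis, had 3 above (8.33%) and 5 below (13.9%) among 36.

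Further groups were formed by gene symbol after the values had been seen, and their counts are descriptions only. The counts are set against all genes, whose shares above and below all mates varied with gene span and mean count, as given below. Chromatin regulators had 54 of 153 genes above all mates and 0 below, against 10.8% and 5.2% of all genes, and 21 of them were among the 564. They included jarid2a (1.23 ± 0.35), a partner of the Polycomb complex, the acetyltransferase scaffold trrap (1.17 ± 0.76), the histone demethylase kdm3b (1.09 ± 0.20) and tet2 (1.01 ± 0.27), which oxidizes methylated cytosine. For kdm3b the counts were 675 against 366, 351 and 253 in the control, 554 against 144, 149 and 241 at 8 µM, and 423 against 144, 189 and 128 at 50 µM. Translation elongation and initiation factors showed the reverse, with 5 of 78 above and 15 below.

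The next groups were formed in the same way, after the values had been seen. Against 10.8% of all genes above all mates and 5.2% below, laminins and integrins had 18 of 44 genes (40.9%) above and 0 below, with lama2, the laminin chain of muscle basement membrane, at 1.12 ± 0.44 and itgb1b, an integrin beta chain, at 1.02 ± 0.18. Axon guidance ligands and receptors had 30 of 111 (27.0%) above and 4 (3.60%) below, among them slit1a (1.18 ± 0.47) and efnb3b (0.90 ± 0.20). Microtubule motors of the kinesin and dynein families had 14 of 57 (24.6%) above and 4 (7.02%) below, with kif3ca at 0.98 ± 0.26 and kif1b at 0.86 ± 0.26.

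The 564 genes also tended to be long, a property that the rule did not use. The median span from start to end, introns included, was 46270 bases for the 533 of them with a value, 12946 bases for the genes below all mates and 19034.5 bases for all genes, by RefSeq's GRCz12tu assembly, to which 92.7% of the genes were matched. Split into 5 equal groups by span, from short to long, 0.26%, 0.86%, 1.93%, 4.73% and 4.90% of genes were counted as higher. Split by mean normalized count, the shares were 0.26%, 2.23%, 4.32%, 3.53% and 2.09% from low to high. Genes above all mates at any size made up 2.26% of the shortest group by span and 18.4% of the longest. Genes below all mates made up 8.04% of the shortest and 3.73% of the longest. By mean count, 3.61% of the lowest group lay above and 2.93% below, against 14.4% and 10.8% of the highest. The gene lists and groups above were set against all genes, not against genes of like span or count. How far their shares follow from span or count was not tested. Protein-coding genes made up 532 of the 564, and 1 of 554 long noncoding RNA genes was among them.

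Zebrafish carry many genes as an a and a b copy from a genome duplication. Genes were paired here by symbols that differ only in a final a or b. Some such pairs, for example rela and relb or pdgfrb and pdgfra, are distinct genes and not copies from that duplication. Among the 564 genes, 231 had a measured partner with the other letter. Of these partners 18 were also counted as higher, 66 lay above all mates and 5 below, with a median difference of 0.11. A pair with both members among the 564 was counted from each side. Of all genes 2.49% were counted as higher, 10.8% lay above all mates and 5.2% below. For 9 of the 15 leading genes the copy with the other letter was measured, and 0 of these 9 were among the 564. Beside mef2ca, mapta and synpo2a, the copies mef2cb, maptb and synpo2b differed by 0.05 ± 0.04, 0.05 ± 0.08 and 0.02 ± 0.07. For maptb the control pool apart had 1219 normalized counts against 1108, 1177 and 1085, the 8 µM pool 1131 against 1098, 1404 and 1028, and the 50 µM pool 1109 against 1106, 988 and 1018. The copies l1cama (0.44 ± 0.06) and sema3ga (0.40 ± 0.15) lay above all mates, and ptprsa (0.38 ± 0.52), col27a1b (0.22 ± 0.23), prdm1a (0.11 ± 0.10) and tp53inp2a (-0.08 ± 0.06) did not lie beyond all mates.

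The same genes also varied among pools of the other 5 concentrations. The mean level of the 564 genes ran from 7.96 to 8.38 in the 3 pools, from 7.32 to 7.69 in the mates and from 7.32 to 7.68 in the other 20 pools, and within each of the other 5 concentrations it spread by 0.17 to 0.34. The 564 were chosen for lying above the mates in these 3 pools, so their gap to the mates of the same concentration follows from the rule. The mean level of the 73 ribosomal protein genes ran from 11.7 to 11.9 in the 3 pools, from 11.9 to 12.1 in the mates and from 11.7 to 12.2 in the other 20. In 3 of the 5 other concentrations the pool with the highest level of the 564 genes had the lowest ribosomal level. When the means of the 5 concentrations were removed, the second component of these 20 pools (9.30% of the variance) had gene weights with an absolute r of 0.51 with the mean differences of the 3 pools, and the first (19.9%) 0.25. These are descriptions across genes of pools that share normalization.

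**Figure D4:**
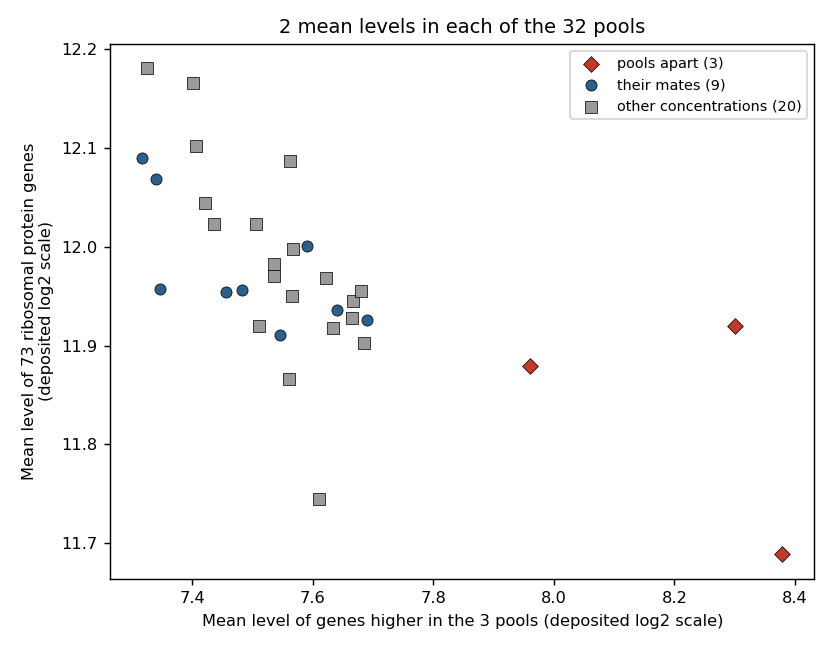
Mean level of the 73 ribosomal protein genes against the mean level of the 564 genes higher in the 3 pools, both on the deposited log2 scale, in each of the 32 pools. Red diamonds are the 3 pools apart, which lie at 7.96 to 8.38 on the horizontal axis, blue circles their 9 mates and gray squares the 20 pools of the other 5 concentrations. On the horizontal axis, the gap between a red point and its mates follows from the rule that chose the 564 genes.

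Retene's own marker genes did not set the 3 pools apart as a group. In the control pool apart cyp1a had 20.0 normalized counts against 36.5, 25.4 and 22.7 in the mates, in the 8 µM pool 6102 against 3586, 3995 and 4454, and in the 50 µM pool 16565 against 20469, 21431 and 20841. It was thus above its mates at 8 µM and below them in the control and at 50 µM. Likewise cyp1c1, a cytochrome P450 of the same family, had 1652 against 1214, 1342 and 1353 at 8 µM and 4216 against 5383, 5128 and 4727 at 50 µM. The receptor repressor ahrra and the ADP-ribosyltransferase gene tiparp, both induced by the receptor, differed by -0.02 ± 0.08 and -0.09 ± 0.13, and cyp1c2 by 0.09 ± 0.25. The receptor genes ahr1b and ahr2 differed by 0.51 ± 0.20 and 0.38 ± 0.16, and in both the 3 pools lay above all mates, though only ahr1b is among the 564. No gene with the symbol cyp1b1 was matched, so it was not analysed here.

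The comparison of retene with the control was then made with and without the 3 pools, by limma on the deposited values with Benjamini-Hochberg adjusted p-values under 0.05. The pools of a group were treated as replicates, so the p-values measure the spread between pools. All differences from the control are on the deposited log2 scale. Where a gene has few reads in one group, they fall short of the log2 ratio of counts. At 50 µM, 730 genes (3.22%) were called without the 3 pools, 305 higher and 425 lower than in the control, and 562 (2.48%) with all 32 pools, 330 higher and 232 lower. Of these, 418 were called in both, all in the same direction, 312 only without the 3 pools and 144 only with them. At 8 µM, 69 genes (0.304%) were called without the 3 pools, 41 higher and 28 lower, and 78 (0.344%) with them, 60 higher and 18 lower, with 49 called in both.

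Leaving out single pools moved these counts in both directions. Without 8 µM replicate 4 alone, 336 genes were called at 8 µM, and without control replicate 2 alone, 48. At 50 µM the count was 930 without 50 µM replicate 2 and 322 without control replicate 2. Leaving out a mate also lowered the counts, for example to 47 and 42 at 8 µM without replicates 2 and 3 of that concentration, and to 337, 361 and 346 at 50 µM without replicates 1, 3 and 4 of that concentration. Control replicate 2 enters both comparisons, which share the control pools.

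**Figure D5:**
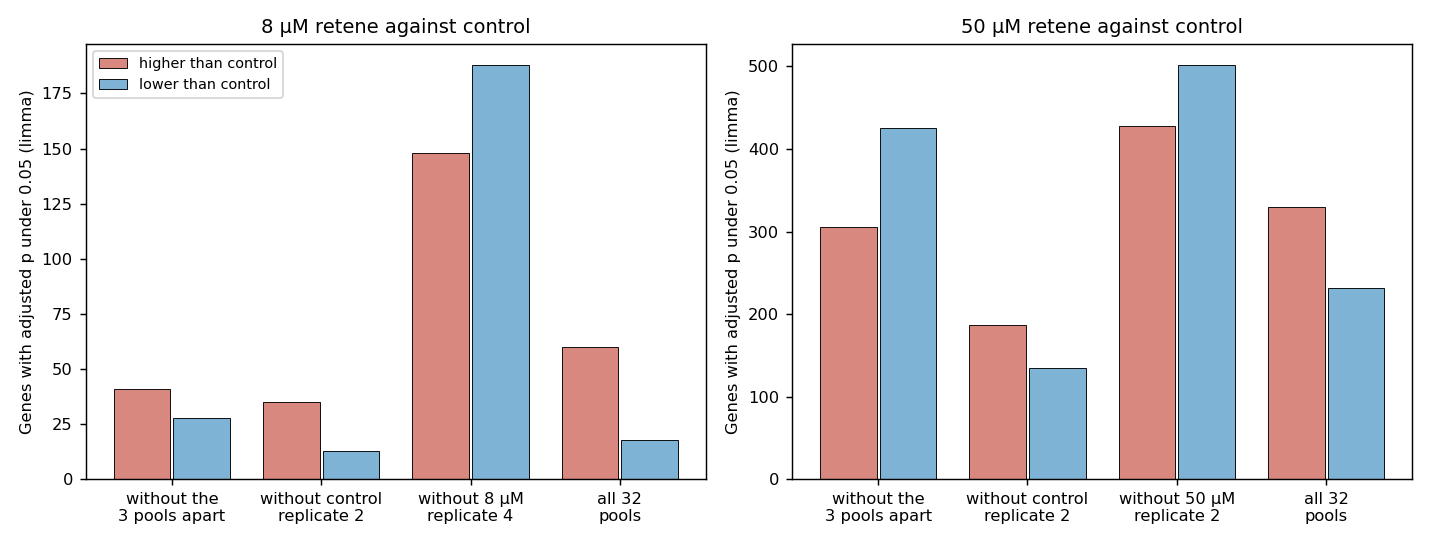
Number of genes called at 8 µM (left) and 50 µM (right) against the control by limma at an adjusted p under 0.05, higher in red and lower in blue. The bars give the fit without the 3 pools apart, without control replicate 2 alone, without the exposed pool apart alone, and with all 32 pools. At 50 µM the lower genes number 425 without the 3 pools and 232 with all 32.

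Most of the genes gained at 50 µM without the 3 pools were lower than in the control, 234 of 312, and 56 of the 564 higher genes were called without them, all 56 lower at 50 µM, against 4 with all pools. That is 9.93% of the 564, against 3.22% of all genes, for genes chosen by how these pools differ. Their median difference from the control was smaller in size without the 3 pools, at -0.18, than with them, at -0.25. The mates left in the fit also differed on the first component, with scores of 0.81 to 5.06 in the control and -10.8 to -4.68 at 50 µM. The mean level of the 564 genes was 7.55 to 7.69 in the control mates, 7.35 to 7.48 in the 50 µM mates and 7.51 to 7.68 in the 20 µM pools. Whether these falls follow retene or other variation between pools was not tested. The phosphatase gene ptprsb, the largest fall among the named genes gained, had 289, 396 and 297 normalized counts in the 50 µM mates, against 752, 868 and 538 in the control mates, while the pools apart had 958 at 50 µM and 1260.0 in the control. The remaining pools of the 2 groups did not overlap, and the difference was -0.94 (SE 0.27, adjusted p = 0.0461, limma) without the 3 pools and -0.79 (SE 0.34, adjusted p = 0.248) with them. The neuronal channel subunit gene unc79 gave -0.81 (SE 0.19, adjusted p = 0.0146) and -0.65 (SE 0.21, adjusted p = 0.11), and the zinc finger gene znf219 -0.82 (SE 0.23, adjusted p = 0.043) and -0.77 (SE 0.31, adjusted p = 0.213). Gained rises were pappab, a metalloproteinase that cleaves binding proteins of insulin-like growth factors (0.72, SE 0.16, adjusted p = 0.00899 without and 0.138 with the 3 pools), the phospholipase gene plcb1 (0.72, SE 0.17, adjusted p = 0.0133 and 0.0847) and alox5b.2, of the lipoxygenase family (0.66, SE 0.17, adjusted p = 0.0265 and 0.17). For pappab the 50 µM mates had 92.2, 83.4 and 228 normalized counts, the highest again in replicate 4. Replicate 4 was also the highest 50 µM mate for plcb1 (92.2, 115 and 222) and for alox5b.2 (35.1, 26.8 and 53.7). The control mates of alox5b.2 had 2.96, 20.7 and 2.96.

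At 50 µM, 144 genes were called only with the 3 pools, 103 higher and 41 lower, and the 3 largest of each with a descriptive symbol are given. The median SE over all genes was 0.091 without the 3 pools and 0.082 with them. The activity-induced factor gene npas4a had 9.0, 7.7, 6.9 and 15.19 normalized counts in the 50 µM pools, against 20.7, 84.8, 23.5 and 22.7 in the control pools, in the order of replicates 1 to 4, and the 84.8 of control replicate 2 was the highest. Its difference was -0.30 (SE 0.13, adjusted p = 0.214) without the 3 pools and -0.52 (SE 0.14, adjusted p = 0.0458) with them. The chemokine gene cxcl8a gave -0.31 (adjusted p = 0.151) and -0.39 (adjusted p = 0.0406), and the complement gene c3b.1 -0.35 (adjusted p = 0.0885) and -0.37 (adjusted p = 0.0497). Lost rises were fetub, a fetuin of liver (0.38, adjusted p = 0.122 without and 0.47, adjusted p = 0.0389 with), tjap1, a tight junction protein gene (0.28, adjusted p = 0.154 and 0.42, adjusted p = 0.0369), and faxdc2 (0.28, adjusted p = 0.138 and 0.41, adjusted p = 0.0198).

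At 8 µM the gained genes included ahr2, which gave 0.34 (SE 0.07, adjusted p = 0.0175) without the 3 pools and 0.32 (SE 0.09, adjusted p = 0.166) with them. Its mates had 761, 771 and 783 normalized counts at 8 µM, against 591, 561 and 623 in the control, and the pools apart had 1076 at 8 µM and 877 in the control, so the size hardly moved and the spread fell. The somite and sclerotome factor gene tcf15 (0.38, adjusted p = 0.0344 and 0.0766) and the transporter gene abcg2c (0.35, adjusted p = 0.0279 and 0.217) were also gained. Gained falls were the receptor tyrosine kinase gene axl (-0.65, SE 0.12, adjusted p = 0.00463 without and 0.223 with), the Argonaute gene ago4 (-0.61, SE 0.13, adjusted p = 0.0269 and 0.231) and the zinc finger gene bcl11aa (-0.52, SE 0.11, adjusted p = 0.0231 and 0.415), and all 3 belong to the 564. For axl the 8 µM mates had 105, 102 and 199 normalized counts, against 279, 273 and 213 in the control mates. Without the 3 pools 1.06% of the 564 were called at 8 µM, against 0.304% of all genes, for genes chosen by how these pools differ. The mates also differed on the first component, with scores of -11.0, -10.4 and -0.36 at 8 µM and 0.81 to 5.06 in the control. Whether the falls at 8 µM follow retene or other variation between pools was not tested.

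At 8 µM, 29 genes were called only with the 3 pools, 22 higher and 7 lower than in the control. The 3 largest rises among those with a descriptive symbol were the forkhead factor gene foxq1a (0.56, adjusted p = 0.0566 without and 0.66, adjusted p = 0.00449 with), the clock repressor gene per2 (0.46, adjusted p = 0.083 and 0.57, adjusted p = 0.015) and the small heat shock protein gene hspb6 (0.41, adjusted p = 0.0866 and 0.51, adjusted p = 0.0219). The 3 largest falls were psip1b (-0.51, adjusted p = 0.0733 and -0.55, adjusted p = 0.0174), gatad2ab (-0.33, adjusted p = 0.0629 and -0.39, adjusted p = 0.00377), a subunit of a chromatin remodeling complex, and pdia6, an endoplasmic reticulum disulfide isomerase (-0.30, adjusted p = 0.115 and -0.33, adjusted p = 0.0311). These 6 genes kept their direction in both fits. The call of cyp1a did not depend on the 3 pools. On the deposited scale, which understates the rise of a gene with few reads in the control, cyp1a rose at 50 µM by 7.62 (SE 0.26, adjusted p = 1.98e-21, limma) without the 3 pools and by 7.57 (SE 0.24, adjusted p = 5.78e-22) with them. At 8 µM it rose by 5.26 (SE 0.26, adjusted p = 3.44e-16) and 5.45 (SE 0.24, adjusted p = 2.89e-17).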

How the data were processed

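Polyadenylated RNA of 32 pools of 9 larvae was sequenced. The authors' notes name STAR as aligner, GRCz11 as genome build and HTSeq as counter (alignment quality of 10 or more). By the authors' methods genes with 0 reads in 8 or more pools were taken out, while in the deposited file genes have 0 reads in at most 8 pools, and 176 genes reach that number. The authors normalized with DESeq2. The values the authors deposited are on the log2 scale of its variance-stabilizing transformation. That transformation was inverted here, and 100.0% of the values became whole reads within 0.01, giving normalized counts and 7720701 to 8656870 reads on genes per pool (median 8169016). No interval for counting error is given, since pools serve as replicates. Genes were named from RefSeq (21030 of 22686 matched). Pools, gene lists and groups were chosen with earlier results of these data known. Components, differences from mates and exact permutation tests were computed with Python 3.11.15, NumPy 2.4.6 and pandas 2.3.3, figures with matplotlib 3.10.9, and retene was tested with limma 3.58.1 in R 4.3.3 (all 32 pools, 1 mean per group, mean-variance trend). Both the counting rule and limma were tested on simulated data. Named genes are the 15 largest differences in each direction among counted genes with a descriptive symbol, up to 3 members of each list, genes of the retene response, and the 3 largest rises and falls gained or lost without the 3 pools, and others are said to be chosen after their values were seen or are members of groups formed so. Alternatives covered the size threshold, the scale, a mean normalized count of at least 10, quantile normalization, a replicate block, fits of 2 groups and each pool left out.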

Additional observations from a re-analysis of the deposited data

Results flagged for a closer look

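In 34 sets of 4 pools (reads, genes with reads and the second component in each group, and 2 mean levels in the 5 concentrations without a pool apart), 2 pools lay far from the other 3 of their group, where chance alone flags about 1 in 20 sets, or 1.7 of 34. Replicate 1 of 1.28 µM had 8434256 reads on genes, against 7720701 to 7825043 in its 3 group mates. Replicate 4 of 0.205 µM had reads on 22531 genes, against 22381 to 22400. Neither pool is among the 3 described.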

How the results depend on the processing

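The higher genes numbered 1651 with a threshold of 0.25, 67 with 1 and 1444 on the log2 scale with 0.5 added, and the lower genes 114, 0 and 272, and 6 after quantile normalization. With 1 pool left out, the higher genes ranged from 431 to 863 and the lower genes from 2 to 87. At 8 µM the genes called ranged from 42 to 336 and at 50 µM from 322 to 930 with 1 pool left out, and fits of only the 2 groups compared called 21 and 182. No label says whether a replicate number stands for a plate or batch. Deviations of same-numbered pools had a median r of 0.00 (range -0.51 to 0.33, 112 pairs). Those of differently numbered pools also had a median of 0.00 (range -0.44 to 0.61, 336 pairs). The replicate block gave 78 genes at 8 µM and 523 at 50 µM. Reads per pool differed by 46190.2 to 154142.8 with 1 mate left out, an alternative chosen after seeing the data. The gap between the 3 pools and the next pool on the first component, 1.58 SD of the other pools, became -2.005 on the log2 scale with 0.5 added, where the 3 pools instead stood apart on the second component with scores of 70.28, 64.9 and 33.3, against at most 11.8 elsewhere. It was 0.357 with the 500 most variable genes, 0.382 with unit variance and 0.713 among the 12 pools. Of 60 list medians, 52 to 59 stayed on the same side of the all-gene median under the 6 alternatives. The median of the mitochondrial genome list changed sides after quantile normalization. The causes were not tested.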
